A study of Mus musculus with 5 samples.

Results

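Isolated open regions are DNase I hypersensitive regions of the double positive (DP) thymocyte genome that had no other listed DNase I region within 50 kb on either side. They were chosen by position alone, from the DNaseI region list of autosomes 1 to 19, as regions whose edge-to-edge gap to the nearest other region exceeded 50000 bp on both sides. The rule found 2012 of 47907 autosomal regions, or 4.2%, and the whole DNaseI list held 48320 regions. DP thymocytes are thymic T cell precursors that carry both the CD4 and the CD8 coreceptor. They came from mice of the strain labelled C57/BL6, aged 4 to 6 weeks, with no genetic change or treatment named. DNase I digestion of intact nuclei gave 1 library, chromatin immunoprecipitation of HEB gave another, and that of TCF1 a further one, so every value below rests on 1 sample per assay and carries no error between animals. The H3K9me3 and H3K27ac samples of the series were not analysed here.

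DNase I cuts chromatin where nucleosomes are displaced, which marks promoters, enhancers, insulators and other regulatory elements. In lymphoid cells such elements often lie in groups around the genes active in that cell, and a site far from any other is the less common arrangement. HEB, the product of Tcf12, is a basic helix-loop-helix E protein that binds E-box sequences, and TCF1, the product of Tcf7, is an HMG-box protein that acts in the Wnt pathway and in T lineage commitment. Both factors bind enhancers of T cell genes, and both take part in the development of DP thymocytes. Positions below are mm9 coordinates counted from 1. No sequence or gene annotation of that build was used, so the regions are described without gene names or motifs.

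The isolated regions were somewhat narrower than the others, with a slightly lower median score, and few were large. Their widths ran from 201 to 1727 bp with a median of 269.5 bp (quartiles 201 and 488 bp), against a median of 316 bp (quartiles 201 and 571 bp) for the 45895 non-isolated regions. The authors' score per region comes without a unit, and its median was 14 (quartiles 10 and 27) in isolated and 16 (10 and 33) in non-isolated regions. The lowest score in the list, 8, was held by 11.5% (10.2 to 13.0%) of isolated and 13.3% (13.0 to 13.6%) of non-isolated regions, so the lower median score did not come with a larger share at the lowest score. The most frequent width, 201 bp, was held by 579 isolated regions, or 28.8% (95% Wilson interval 26.8 to 30.8%), and by 26.3% (25.9 to 26.7%) of the non-isolated ones. At the other end, 66 isolated regions exceeded 1000 bp, or 3.28% (2.59 to 4.15%), against 6.78% (6.56 to 7.02%). Those over 1500 bp were 8, or 0.398% (0.202 to 0.783%), against 1.91% (1.79 to 2.04%). Per chromosome, the median width of isolated regions lay between 255 and 318 bp and was below that of the non-isolated regions on 17 of 19 autosomes, where the latter lay between 307 and 331 bp. These are values of the list that the rule read, so they describe the regions and no test was made of them. All Wilson and Poisson intervals cover counting error only.

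**Figure D1:**
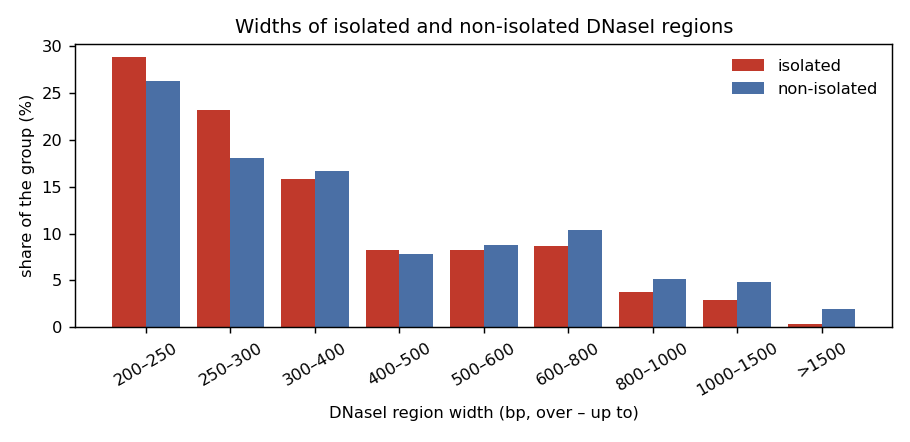
Share of isolated (red, 2012 regions) and non-isolated (blue, 45895 regions) DNaseI regions in each width class, in bp on the x axis and percent of the group on the y axis. Isolated regions hold larger shares in the classes up to 300 bp (28.8% and 23.2%) and a smaller share above 1500 bp (0.398% against 1.91%).

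Score followed width among isolated regions, with a Spearman's rho of 0.90 across the 2012 regions (0.94 across non-isolated ones), given as a description of regions from 1 library. At like width the score differed little. Between 200 and 250 bp the median score was 9 in both groups, between 250 and 300 bp it was 12 in both, and between 400 and 500 bp 25 in both. From 600 to 1500 bp the isolated median was the higher one, with 41 against 39 at 600 to 800 bp, 61 against 55 at 800 to 1000 bp and 86.5 against 77 at 1000 to 1500 bp. Above 1500 bp, with 8 isolated regions, the medians were 133 and 136. Ranked within its width class, an isolated region stood on average at percentile 54.5 and a non-isolated region at 49.8.

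The gap to the nearest other region had a median of 83529 bp (quartiles 62426 and 141886 bp). It exceeded 100 kb for 774 isolated regions, 200 kb for 339 and 500 kb for 91. Of the isolated regions, 21 were the first or last of their chromosome, where the outer gap is undefined and only the inner one was used. The 3 regions with the largest nearest gap carried neither factor, as did 91.1% of all isolated regions. On chromosome 1 a region from 113760766 to 113761021 (256 bp, score 9) lay 4980167 bp from its nearest neighbour. On chromosome 16 a region from 70314787 to 70315104 (318 bp, score 15) lay 4751430 bp from it, and on chromosome 5 a region from 58105932 to 58106187 (256 bp, score 11) lay 3613440 bp from it. The score scale begins at 8, and the region on chromosome 16 was wider than the median isolated region.

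Along the chromosomes, 820 isolated regions stood alone between non-isolated regions. The other 1192, or 59.2%, formed runs of 2 or more consecutive isolated regions. The rule itself favours runs, because the neighbour of an isolated region already has a wide enough gap on the shared side. No expected share was computed, so the 59.2% only describes the order of the regions. Whether isolated regions cluster was not tested. The longest runs held 7 regions and occurred 5 times. On chromosome 8 such a run reached from 49036692 to 59914958, or 10.9 Mb, with scores of 8 to 68 and no HEB or TCF1 region on any of its members. The run on chromosome 6 from 13558137 to 17309703 and that on chromosome 2 from 112615117 to 115493515 each had 2 members with TCF1 and none with HEB. The runs on chromosome 10 from 87966881 to 88906994 and on chromosome 17 from 21870525 to 23004509 carried neither factor. Of all isolated regions, 91.1% carried neither, so short runs without a factor are common.

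The share of isolated regions differed between chromosomes. It was 7.06% of the DNaseI regions of chromosome 13, 6.46% on chromosome 18 and 6.38% on chromosome 14, and it was 2.34% on chromosome 11, 3.02% on chromosome 7 and 3.04% on chromosome 17. By number, chromosome 2 held the most with 148, and chromosome 19 the fewest with 52. The regions just inside the 50 kb threshold were on chromosome 18 from 61278503 to 61278703 (gap 50023 bp) and on chromosome 5 from 150971226 to 150971478 (gap 50089 bp). The pair just outside were neighbours of each other on chromosome 5, from 112271231 to 112271941 and from 112321880 to 112322551, with a gap of 49938 bp. There were 274 regions with a nearest gap of 45 to 50 kb and 229 with one of 50 to 55 kb, with median widths of 308.5 and 273 bp. TCF1 lay on 20 of the former (7.30%) and 11 of the latter (4.80%), and HEB on 6 of each (2.19% and 2.62%).

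TCF1 occupied isolated regions more often than non-isolated regions of like width. It lay on 137 of 2012 isolated regions, or 6.81% (5.79 to 7.99%), beside 6.12% of all autosomal DNaseI regions and 6.09% (5.87 to 6.31%) of the non-isolated ones. Wide regions carry TCF1 more often, and isolated regions were narrower, so the non-isolated share was also computed with the widths of the isolated regions. That share was 4.66% (4.49 to 4.84%), and the isolated regions exceeded it by 2.14 percentage points (95% interval 1.06 to 3.23). The odds of TCF1 were 1.53 times higher (Mantel-Haenszel odds ratio over width classes, 95% interval 1.27 to 1.84). TCF1 and the isolation rule come from different libraries. The interval treats regions as independent and covers counting error only, and no p-value was computed because each assay had 1 sample. On 15 of 19 autosomes the isolated share was above the width-standardised non-isolated share of the same chromosome. With regions of like width and like DNaseI score compared, the odds ratio was 1.44 (1.19 to 1.74).

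The excess of TCF1 was found at most widths. Between 200 and 250 bp TCF1 lay on 2.42% (1.45 to 4.02%) of isolated and 0.704% (0.570 to 0.870%) of non-isolated regions. Between 300 and 400 bp these shares were 7.21% (4.85 to 10.6%) and 3.41% (3.03 to 3.85%), and between 400 and 500 bp 10.2% (6.49 to 15.8%) and 6.21% (5.46 to 7.05%). Intervals of the groups overlapped from 400 bp upward, with 5.42% against 6.80% at 500 to 600 bp and 29.3% (19.2 to 42.0%) against 23.6% (21.9 to 25.5%) at 1000 to 1500 bp. Only the class of 500 to 600 bp and that above 1500 bp, where 2 of 8 isolated regions carried TCF1, had the lower share in isolated regions.

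HEB lay on 62 of 2012 isolated regions, or 3.08% (2.41 to 3.93%), beside 3.46% of all autosomal DNaseI regions and 3.48% (3.31 to 3.65%) of the non-isolated ones. With widths standardised, the non-isolated share was 2.52% (2.39 to 2.65%), and the difference of 0.566 points had an interval from -0.192 to 1.32. The odds ratio over width classes was 1.23 (0.947 to 1.60), which includes 1. With a gap above 25 kb in place of 50 kb it was 0.948 (0.780 to 1.15), so the direction of this pooled value turned. The pooled value joins higher isolated shares in the classes from 200 to 400 bp and lower ones in those from 400 to 1500 bp.

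Among the narrowest open regions, HEB was several times as frequent on isolated as on non-isolated ones. Of the 579 isolated regions of up to 250 bp, 21 carried HEB, or 3.63% (2.38 to 5.48%), against 63 of 12069 non-isolated ones, or 0.522% (0.408 to 0.667%). The odds ratio was 7.17 (4.34 to 11.8). Above 250 bp it was 0.851 (0.617 to 1.17), with HEB on 41 of 1433 isolated regions, or 2.86% (2.12 to 3.86%), against a width-standardised 3.32% (3.15 to 3.50%). The odds ratio in the narrow range was 8.43 times that in the wider range (4.65 to 15.3). Above 600 bp HEB lay on 18 of 315 isolated regions, or 5.71% (3.64 to 8.85%), against a standardised 8.84% (8.31 to 9.38%), with an odds ratio of 0.616 (0.378 to 1.00). At 1000 to 1500 bp the shares were 3.45% (0.951 to 11.7%), from 2 regions, and 14.3% (13.0 to 15.9%). The isolated HEB share was also higher at 250 to 300 bp (1.50% against 0.806%) and at 300 to 400 bp (2.51% against 1.62%). The same held above 1500 bp, with 3 of 8 isolated regions, or 37.5%, against 30.8%. In these 3 classes the intervals of the groups overlapped. The shares were close at 400 to 500 bp (2.41% against 2.53%) and at 800 to 1000 bp (9.33% against 9.84%). The split at 250 bp was chosen after these values were seen. For TCF1 the odds ratio was 3.49 (1.97 to 6.19) up to 250 bp and 1.43 (1.17 to 1.74) above, a ratio of 2.45 (1.34 to 4.47). Above 600 bp the TCF1 odds ratio was 1.23 (0.920 to 1.65), which includes 1.

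**Figure D2:**
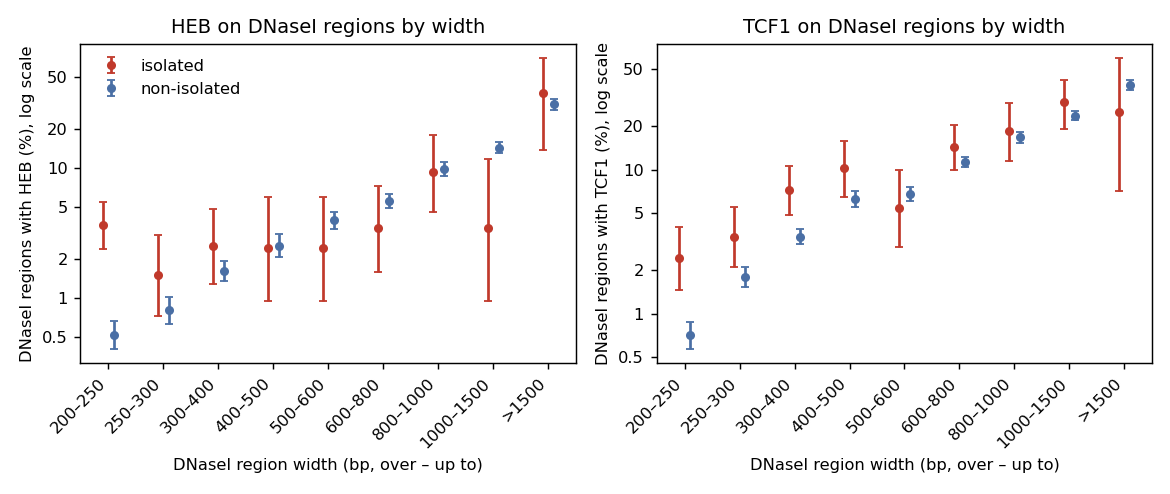
Share of DNaseI regions with HEB (left) and TCF1 (right) by width class in bp, for isolated (red) and non-isolated (blue) regions, on a log scale in percent, with 95% Wilson intervals as bars. On isolated regions, HEB is above the non-isolated share from 200 to 400 bp (3.63% against 0.522% at 200 to 250 bp) and above 1500 bp. It is below that share from 400 to 1500 bp (3.45% against 14.3% at 1000 to 1500 bp). TCF1 is above the non-isolated share in all classes but 500 to 600 bp and above 1500 bp.

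The narrow isolated regions with HEB had a higher median HEB score than the narrow non-isolated ones, at the low DNaseI scores common to this width. All 21 were 201 bp wide, as were all 579 isolated regions of up to 250 bp and the 63 narrow non-isolated regions with HEB, and 201 bp is also the width of every region in the HEB list. Their DNaseI scores ran from 8 to 26 with a median of 9, which was also the median of the 63. The groups differed in the HEB score. The HEB regions on them had scores from 10 to 49 with a median of 26 (quartiles 17 and 31). HEB regions on narrow non-isolated regions had a median of 11 (10 and 15), those on isolated regions over 250 bp a median of 13 (11 and 20), and those on non-isolated regions over 250 bp a median of 15 (11 and 20). HEB regions outside DNaseI regions had a median of 10 (10 and 12). Of the 21 HEB regions on narrow isolated regions, 11 scored above 25, or 52.4%, against 4.76% of the 63 on narrow non-isolated regions. Read from the HEB side, the share of HEB regions on a narrow DNaseI region whose DNaseI region was isolated moved with the HEB score required. It was 20 of 54, or 37.0% (25.4 to 50.4%), with scores above 10, 54.8% (37.8 to 70.8%) above 15, 66.7% (43.7 to 83.7%) above 20 and 11 of 14, or 78.6% (52.4 to 92.4%), above 25. With no score required, 21 of these HEB regions were on isolated and 63 on non-isolated regions. The narrow regions themselves were 579 isolated and 12069 non-isolated ones. These sets are nested, so they restate the difference in HEB score given above.

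**Figure D3:**
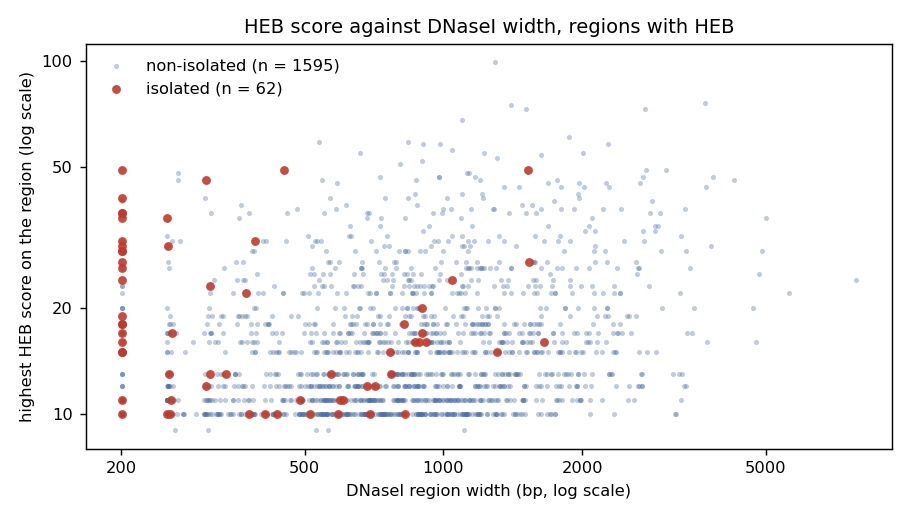
Highest HEB score on each DNaseI region that carries HEB (y axis, log scale, no stated unit) against the width of the DNaseI region in bp (x axis, log scale), for 62 isolated (red) and 1595 non-isolated (blue) regions, 1 point per region. At 201 bp the red points have a median HEB score of 26 and a maximum of 49, and the blue points a median of 11 and a maximum of 40.

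The HEB and DNaseI regions lay closer to each other in these narrow regions than in narrow non-isolated ones. Both kinds of region have the same width and were paired by overlap, which by itself keeps their centres close. The centres of the HEB region and of the DNaseI region were a median of 22 bp apart, and within 50 bp in 17 of 21 cases, against a median of 57 bp and 26 of 63 cases for narrow non-isolated regions. They also lay far out even among isolated regions. Their median gap to the nearest open region was 350343 bp, against 83347 bp for the 558 narrow isolated regions without HEB. A gap above 100 kb was found for 17 of the 21, against 239 of all 579 narrow isolated regions. They were found on 12 of 19 autosomes, with 5 on chromosome 13 and 1 or 2 on each of the others. Without chromosome 13 the odds ratio was 5.88. Without the isolated regions that were first or last on their chromosome it was 6.50 (3.86 to 10.9). Among regions of equal DNaseI score the odds ratio was 6.65 (4.00 to 11.1).

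The examples here are those with the highest HEB scores of the 21, and all but the first were chosen after their values were seen. They are not typical, because the 21 HEB scores reached down to 10, with a lower quartile of 17. The first example also had the highest DNaseI score of the 21. On chromosome 6 a region from 3151490 to 3151690 had a DNaseI score of 26 and a HEB score of 49, and it was the first DNaseI region of its chromosome, 296352 bp from the next. On chromosome 13 the region from 19090597 to 19090797 had a DNaseI score of 10 and a HEB score of 41. On chromosome 16 the region from 83399777 to 83399977 had scores of 12 and 37, with gaps of 4772553 and 1127596 bp. On chromosome 13 the region from 86913290 to 86913490 had scores of 8 and 37, and it also carried TCF1 with a score of 12. The mm9 sequence of these positions was not examined. Whether they lie in repeated sequence, or in sequence that gathers reads in more than 1 assay, was not tested, which limits what the HEB odds ratio and scores of narrow regions can be taken to mean.

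Occupancy was also followed over classes of distance. For each class of the nearest gap, the number of regions with a factor was divided by the number expected from the widths of the regions and the autosomal share of each width class. For TCF1 this ratio was 0.883 (0.792 to 0.983, exact Poisson interval) at 1 to 2 kb, 1.08 (0.970 to 1.20) at 10 to 25 kb, 1.28 (1.09 to 1.49) at 25 to 50 kb, 1.30 (1.03 to 1.61) at 50 to 100 kb, 1.36 (0.874 to 2.03) at 100 to 200 kb, 1.94 (1.25 to 2.86) at 200 to 500 kb and 2.12 (0.970 to 4.03) above 500 kb, from 9 regions. The regions of 25 to 50 kb, which the rule leaves out, thus had nearly the same TCF1 ratio as the isolated regions of 50 to 100 kb, although the raw TCF1 share was 7.30% at 45 to 50 kb and 4.80% at 50 to 55 kb. For HEB the ratio was 1.13 (0.995 to 1.28) at 1 to 2 kb, 0.674 (0.557 to 0.808) at 10 to 25 kb and 0.769 (0.578 to 1.00) at 25 to 50 kb. It was 1.04 (0.719 to 1.45) at 50 to 100 kb and 0.966 (0.442 to 1.83) at 100 to 200 kb. Farther out it was 1.71 (0.884 to 2.99) at 200 to 500 kb and 3.10 (1.25 to 6.39) above 500 kb, from 7 regions.

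**Figure D4:**
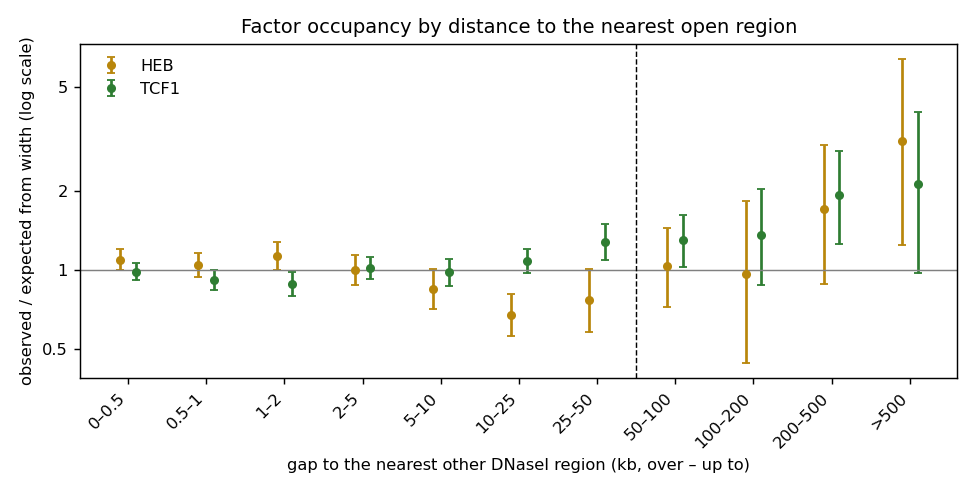
Observed over expected number of DNaseI regions with HEB (gold) or TCF1 (green), on a log scale, by the gap to the nearest other DNaseI region in kb; bars are exact 95% Poisson intervals, the grey line is a ratio of 1 and the dashed line is the 50 kb threshold. TCF1 is at 1.94 at 200 to 500 kb and 2.12 above 500 kb, and HEB has its lowest ratio, 0.674, at 10 to 25 kb.

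The HEB share varied with both distance and width. Among regions of up to 250 bp, HEB lay on 0.493% (0.373 to 0.652%) of those with a neighbour within 10 kb, 0.655% (0.390 to 1.10%) at 10 to 50 kb, 1.65% (0.840 to 3.23%) at 50 to 200 kb and 13.7% (8.17 to 22.0%), or 13 of 95, beyond 200 kb. Among wider regions the HEB shares in these gap classes were 4.93%, 2.64%, 2.94% and 2.46%, the last from 6 of 244 regions. TCF1 lay on 0.584% (0.452 to 0.754%), 1.26%, 1.65% and 6.32% (2.93 to 13.1%) of the narrow regions, and on 7.99%, 8.07%, 7.99% and 11.5% (8.06 to 16.1%) of the wider ones. Beyond 200 kb a narrow open region thus carried HEB more often than a wider open region did, the reverse of the order within 10 kb.

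Both factors met on 20 isolated regions, or 0.994% (0.644 to 1.53%), beside 1.29% of all autosomal DNaseI regions. The width-standardised non-isolated share was 0.784% (0.715 to 0.853%), and the odds ratio was 1.27 (0.803 to 2.01), which includes 1. Another 42 isolated regions carried HEB alone (2.09%, against 2.17% of non-isolated regions), and 117 carried TCF1 alone (5.82% against 4.78%). Neither factor lay on 1833, or 91.1%, close to the 91.7% of non-isolated regions. In 19 of the 20 the HEB and TCF1 regions overlapped each other, with centres a median of 25.5 bp apart. This was not computed for non-isolated regions with both factors. Factor regions of 201 bp (HEB) and 183 bp (TCF1) have little room to lie apart on a narrow open region. Of the 20, 4 were no wider than 250 bp and 8 were between 250 and 500 bp. Isolated regions with both factors were much smaller than non-isolated ones with both, at a median of 404.5 bp against 1079 bp and a median score of 25.5 against 92. Those with TCF1 alone had median widths of 508 and 687.5 bp in the isolated and non-isolated group, those with HEB alone 282 and 698.5 bp, and those with neither 261 and 307 bp.

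Among the isolated regions with both factors, 8 were wider than 500 bp and 4 were no wider than 250 bp. The highest DNaseI score of them, 186, belonged to a region on chromosome 8 from 13213175 to 13214708, with a HEB score of 27 and a TCF1 score of 13. On chromosome 14 a region from 11285554 to 11286380 (DNaseI score 133) carried the highest-scoring TCF1 region on any isolated region, with 28, and a HEB region with a score of 10. Regions on chromosome 5 from 142515106 to 142516760 (130) and on chromosome 1 from 57896209 to 57897253 (125) had HEB scores of 16 and 24 and TCF1 scores of 8 and 12. On chromosome 10 the region from 4961553 to 4962452 (94) had a score of 17 for each factor, and on chromosome 9 that from 51209546 to 51210445 (66) had 20 for HEB and 17 for TCF1.

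Smaller regions with both factors followed. On chromosome 8 the region from 70236897 to 70237763 (68) lay 217888 bp from its nearest neighbour, with a HEB score of 16 and a TCF1 score of 8. On chromosome 15 the region from 11462504 to 11463073 had a DNaseI score of 47, and on chromosome 13 that from 73465867 to 73466302 a score of 27. A region of 450 bp on chromosome 2, from 50444742 to 50445191, stood out by its factors: its DNaseI score was 33, its HEB score of 49 was the highest on any isolated region (shared with 2 others), its TCF1 score was 25, and no other open region lay within 224084 bp.

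Large isolated regions did not all carry these factors, and nor did large non-isolated ones. Above 1500 bp, HEB lay on 3 of 8 isolated regions and 30.8% of non-isolated ones, and TCF1 on 2 of 8 and 38.8%. The widest and highest-scoring isolated region, on chromosome 8 from 4677270 to 4678996 (1727 bp, score 229), carried neither factor. Nor did the second, on chromosome 8 from 116158529 to 116160218 (1690 bp, score 207), which had no open region within 497083 bp. The fourth by score, on chromosome 17 from 85356178 to 85357348 (score 186), carried neither as well. On chromosome 1 the region from 120284905 to 120286247, next with a score of 177, had a TCF1 region scoring 20. The other isolated regions under the highest-scoring factor regions were on chromosome 11 from 71483290 to 71484814 (1525 bp, DNaseI score 109, HEB score 49) and on chromosome 2 from 113688415 to 113689464 (1050 bp, DNaseI score 80, TCF1 score 26), and the latter belonged to the run of 7 on that chromosome.

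Seen from the factor lists, isolated regions held 62 of 4815 autosomal HEB regions, or 1.29%, and 137 of 3511 autosomal TCF1 regions, or 3.90%. Isolated regions were 4.2% of the autosomal DNaseI regions. The 2 shares are not alike in base, because 64.7% of HEB but 14.8% of TCF1 regions lay outside DNaseI regions. Non-isolated regions held 34.0% of the HEB and 81.3% of the TCF1 regions. The TCF1 scores on isolated regions had a median of 11 (quartiles 9 and 14), the same as on non-isolated regions, and 1.46% of them exceeded 25, against 4.10%. The HEB scores had a median of 16 (12 and 27) on isolated and 13 (11 and 19) on non-isolated regions, and without the narrow regions the isolated median was 13. In isolated regions over 500 bp the centre of the HEB region lay a median of 101 bp, and that of the TCF1 region a median of 115 bp, from the centre of the open region. The corresponding distances in non-isolated regions over 500 bp, which were also wider, were 153 and 136.5 bp.

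The flanks of isolated regions held some factor regions that touched no DNaseI region. Within 1 kb of an isolated region there were 12 TCF1 regions, or 2.98 per Mb (exact Poisson interval 1.54 to 5.21), against 0.559 per Mb (0.256 to 1.06) at 1 to 5 kb, 0.249 (0.0807 to 0.580) at 5 to 10 kb and 0.265 (0.152 to 0.430) at 10 to 25 kb. The density of TCF1 regions outside DNaseI regions over all autosomes was 0.217 per Mb. Within 1 kb of non-isolated regions it was 2.15 per Mb (1.82 to 2.51), an interval that lies inside that of the isolated regions. HEB regions followed no steady order, with 4 regions, or 0.994 per Mb (0.271 to 2.55), within 1 kb, 2.11 per Mb (1.46 to 2.95) at 1 to 5 kb, 1.09 (0.685 to 1.66) at 5 to 10 kb and 1.89 (1.56 to 2.27) at 10 to 25 kb. The HEB density outside DNaseI regions over all autosomes was 1.31 per Mb (1.26 to 1.35), below the intervals of the rings at 1 to 5 kb and 10 to 25 kb. Densities beyond 1 kb were not computed around non-isolated regions, so whether these values are particular to isolated regions was not tested.

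**Figure D5:**
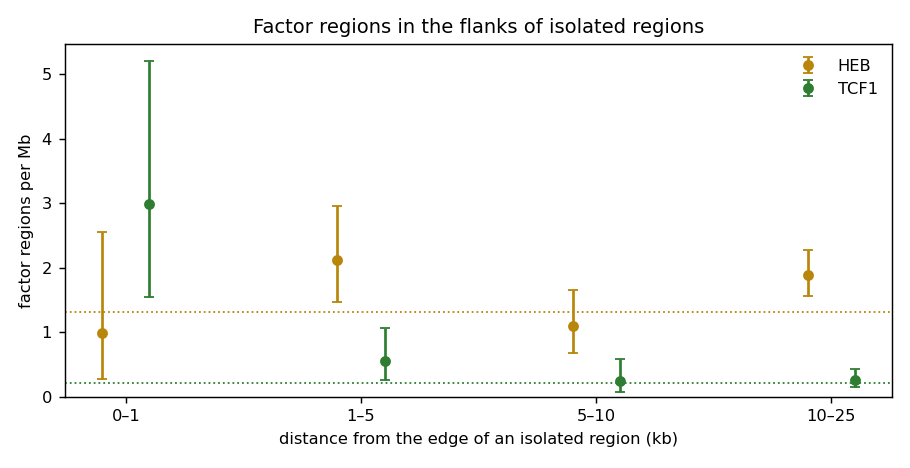
Factor regions that touch no DNaseI region, per Mb, by distance in kb from the edge of the 2012 isolated regions, for HEB (gold) and TCF1 (green), with exact 95% Poisson intervals as bars; dotted lines give the density of such regions over all autosomes. TCF1 stands at 2.98 per Mb within 1 kb and at 0.265 per Mb at 10 to 25 kb, and HEB at 0.994, 2.11, 1.09 and 1.89 per Mb from the innermost ring outward.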

How the data were processed

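Region lists of 3 samples were used, DNaseI, HEB and TCF1, each from 1 library; per the labels' protocols, a SOLiD system read them. Each list gives a whole-number score per region as deposited by the authors, with no stated unit, and scores were compared only within their own list. The submitters' processing notes name HOMER 6.1 and mm9. Aligner, calling thresholds, controls and read totals were not given in the sources used here, so depth is unknown. Isolation is relative to the listed regions, and a weaker region under the authors' threshold would not count as a neighbour.

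Gaps were edge to edge. A factor was counted on a region when they overlapped by at least 1 bp. Width classes had upper edges of 200, 250, 300, 400, 500, 600, 800, 1000 and 1500 bp, and the standardised share weights the non-isolated share of each class by the number of isolated regions in it. Intervals are at 95%. No p-value was computed. The regions named followed a fixed rule (the 5 highest-scoring isolated regions, 10 with both factors, 3 with the largest gap, 3 widest, 3 under the highest-scoring regions of each factor, the longest runs, and 2 on each side of the threshold) unless said otherwise. The members, lists and comparisons were chosen with earlier results of these data known. Gap, overlap and odds ratio computations were tested on simulated data. Sequence and annotation were planned for an mm9 reference and were not run. Shares and odds ratios were computed with statsmodels 0.14.6 and scipy 1.17.1 under Python 3.11.15, and figures drawn with matplotlib 3.10.9.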

Additional observations from a re-analysis of the deposited data

How the results depend on the processing

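The TCF1 odds ratio stayed above 1, with its interval, under all 10 alternatives planned (1.37 to 1.79) and with each autosome left out (1.48 to 1.57). The HEB odds ratio of 1.23 did not keep its direction or its side of 1: it was 0.948 with a gap above 25 kb, 0.755 (0.612 to 0.932) with DNaseI scores above the median and isolation computed anew, 1.53 (1.05 to 2.25) with a gap above 100 kb and 1.48 with HEB scores above the median; the cause was not tested. With factor regions up to 500 bp from the open region also counted, the HEB odds ratio was 1.02 (0.791 to 1.33). In comparisons added after seeing the data, it was 0.851 above 250 bp and 7.17 up to 250 bp. The narrow-region HEB odds ratio was 4.23 to 17.0 under 6 other settings and 5.88 to 8.33 with each autosome left out. Counting factor regions up to 500 bp away was not among those settings. The odds ratio for both factors was 0.950 with DNaseI scores above the median and 14.0 (3.94 to 49.7) up to 250 bp, from 4 regions. The median width of isolated regions was 303 bp with a gap above 25 kb, 259 bp above 100 kb and 534 bp with DNaseI scores above the median, where the median score was 31. Each autosome left out gave 1.16 to 1.29 for HEB and 1.16 to 1.38 for both factors. No paired analysis was possible because each assay had 1 sample. Unknown depth limits what an absent region means, and 1 library per assay leaves no error between animals.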
